A study of Gossypium hirsutum with 12 samples.

Results

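Of 37500 cotton gene IDs, 78 (0.208%) had no read in any library at 0 d post-anthesis (DPA) and a mean of at least 6 normalized counts at 12 DPA. These member genes were chosen by those stage means alone, so their difference between the stages is given as a description and was not tested. Normalized counts are reads of a gene divided by the size factor of their library, with no division by gene length, and they are not compared between genes as abundance.

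The samples were upland cotton (Gossypium hirsutum), a tetraploid, and were labeled as fibers of 6 lines at 2 stages. The 3 wild-type lines were brown (BCF), green (GCF) and white (WCF). The 3 transgenic lines, 5#, 6# and 24#, were labeled brown, green and white, and came from the T1 progeny of a single transformed plant of the brown line 'Zong 1282', in which the constitutive 35S promoter drove a hairpin for RNAi of GhCHI-1, a chalcone isomerase gene. Each line gave 1 library per stage, 12 in all, with no second library of the same line and stage, so the spread over 6 libraries at a stage is a spread over lines. The methods name ovules with their fibers as the collected material, while the labels name fibers. A difference between the stages therefore cannot be told apart from a difference in tissue.

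A cotton fiber is a single elongated cell of the ovule epidermis. It starts to grow out on the day of flowering and elongates for weeks, with heavy synthesis of primary wall, membrane lipid and cuticular wax, before cellulose fills the secondary wall. Very-long-chain fatty acids, made from the 3-ketoacyl-CoA synthase step onward, are among the lipids known to be needed for this elongation.

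Facts of the whole series bear on what a 0 means here. At 0 DPA the libraries had size factors between 0.487 and 1.67, and at 12 DPA between 0.770 and 1.30, as recovered from the stage means. Taking the normalized totals of a stage's libraries as equal, a 0 DPA library had about 1482909 to 5075787 reads in genes and a 12 DPA library about 3748760 to 6309377. The shallowest library below is the one with the smallest size factor, thus the fewest reads in genes. Mapped reads as listed by the study differed less between the 0 DPA libraries than these size factors. The counting tool set aside many alignments that were not unique: their normalized mean was 14.2 times the gene sum at 0 DPA and 1.88 times at 12 DPA. Reads that fit near-identical genes of the reference fall into that entry, and its part in the members' zeros was not tested. The reference was the genome of a diploid relative, so an ID can hold reads of several gene copies of the tetraploid. A list of 45 fiber genes summed to 9478 normalized counts at 0 DPA and 222944 at 12 DPA. A list of 2 ovule or seed genes summed to 4.06 and 11.9. Both lists came from names in the study's supplementary tables, which list mostly genes higher at 12 DPA. All 571 IDs with a protein record there summed to 91267 and 740863. A higher sum at 12 DPA was therefore likely from the start, and the markers at hand give little on ovule tissue.

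The members were mostly genes of low count at 12 DPA. Their 12 DPA means ran from 6.04 to 171, with a median of 12.3. Of the 78, 30 lay under 10 normalized counts, 30 from 10 to 20, 15 from 20 to 50 and 3 above 50. The median member stood at percentile 46.0 of all genes at 12 DPA, and the highest at percentile 85.5. Together the members held 1427 normalized counts, 0.0293% of the gene sum of the stage, and the 10 highest members held 41.3% of that. In bulk RNA of this kind, fewer cells of a type and less RNA per cell cannot be told apart, at 0 DPA as at 12 DPA.

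**Figure D1:**
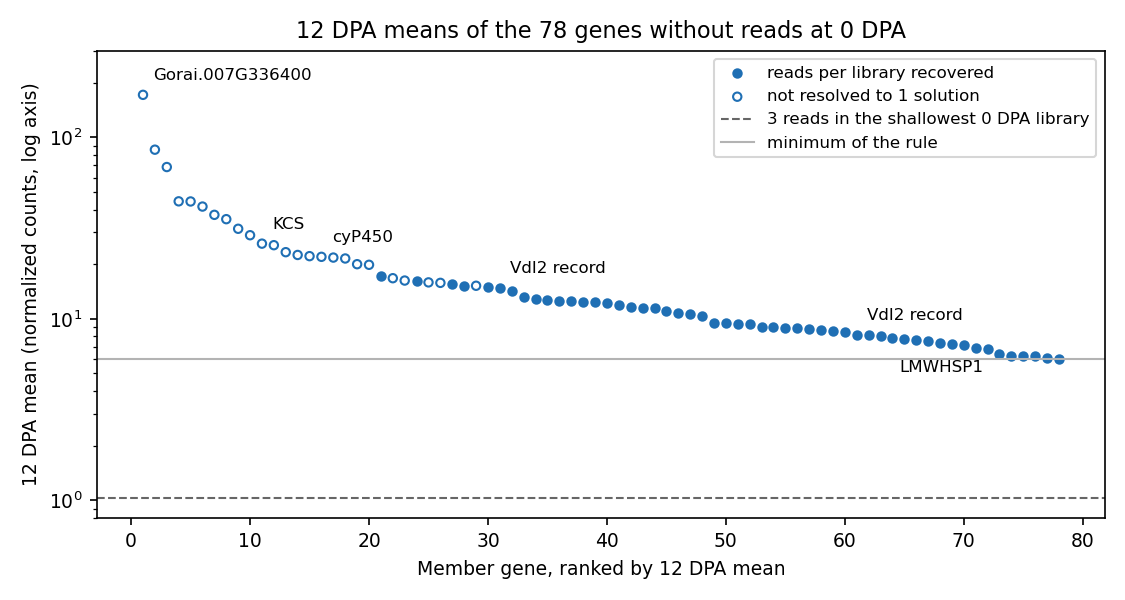
The 12 DPA mean in normalized counts (log axis) is plotted for each of the 78 members, ranked from the highest, with a dashed line at the floor of 3 reads in the shallowest 0 DPA library and a gray line at the minimum of 6. Filled points mark the 53 members whose reads per library were recovered as 1 solution, and 1 gene reached 171 while 60 lay under 20.

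Since every member was at 0 in all 6 libraries at 0 DPA, a fold can be given as a lower bound only. The floor used was 3 reads in the shallowest 0 DPA library, which adds 1.03 to a stage mean. Against it the lowest member was at least 5.88-fold higher at 12 DPA, the median member at least 12.0-fold and the highest at least 167-fold. A gene with a mean of 6 at 0 DPA would have had about 40.6 reads over those 6 libraries. These values cover counting error only.

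Absence at 0 DPA became rarer as the 12 DPA mean grew. Of 2415 genes with a 12 DPA mean from 6 to 12, 38 (1.57%) were at 0 at 0 DPA, and from 12 to 25 it was 28 of 3103 (0.902%). From 25 to 50 it was 9 of 3939 (0.228%), and none of the 4648 genes at 200 or more was at 0. The opposite set, at 0 at 12 DPA with a 0 DPA mean of at least 6, held 17 genes (0.0453% of all), with a median of 9.68 and a highest mean of 32.2. The sizes of both sets depend on the scale of the stages. With the 12 DPA means divided by the ratio of the gene sums (1.60) there were 48 members against 17 genes, and with the 0 DPA means multiplied by it 78 against 39. Of the 0 DPA means from 6 to 12, 11 of 2318 (0.475%) were at 0 at 12 DPA.

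**Figure D2:**
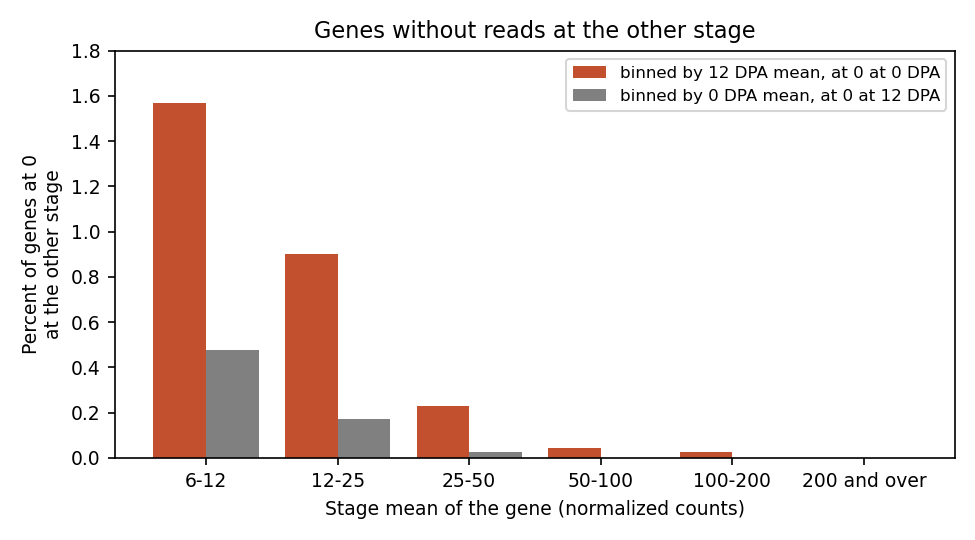
Bars give the percent of genes at 0 at the other stage, by the stage mean of the gene in normalized counts. The orange bars (at 0 at 0 DPA) fall from 1.57% to 0 and the gray bars (at 0 at 12 DPA) from 0.475% to 0.

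The members are the upper end of a longer series. Reads at 12 DPA but none at 0 DPA were found for 1355 genes, and 1277 of them stayed under the minimum. Just inside it were Gorai.002G194300 (6.04), Gorai.009G061500 (6.06) and Gorai.009G240500 (6.20). Just outside were Gorai.008G166500 (5.99), Gorai.008G173100 (5.82) and Gorai.013G099400 (5.81). The minimum thus parts genes with nearly the same mean. Gorai.013G099400 had 1, 14 and 15 reads in libraries 3, 4 and 6 and none in the other three. A further 135 genes passed the 12 DPA minimum with a 0 DPA mean above 0 that did not exceed 0.342, the value of 1 read in the shallowest library. Among these near misses Gorai.010G246700 had the highest 12 DPA mean, 220.6 normalized counts, with 1 read at 0 DPA. Its ID neighbor Gorai.010G246800 was a member (0 and 8.96).

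The highest member was Gorai.007G336400, whose mean was 171 normalized counts at 12 DPA. Gorai.013G211900 followed with 85.5 and Gorai.004G019400 with 68.6. The next 7 means were closer to each other: Gorai.009G340100 (44.4), Gorai.004G026500 (44.3), Gorai.006G066200 (41.5), Gorai.001G224400 (37.4), Gorai.011G272800 (35.4), Gorai.011G226400 (31.3) and Gorai.004G026300 (28.9). None of these 10 was paired with a protein record. Gorai.011G226400 was paired with a microsatellite clone, which names no function.

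Most members could not be named. All 78 are listed in the part of the study's tables that was read for names, 25 have a matched cotton record, and 20 of those records are markers or clones that name no protein. The other 5 are records of a fatty acid elongation enzyme, a cytochrome P450-like protein, a small heat shock protein and, at a pair of IDs, VdI2. The same record can stand at several IDs.

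The lipid member was Gorai.011G249100, matched to a 3-ketoacyl-CoA synthase (KCS) record. KCS enzymes catalyze the first and rate-limiting step of each round of fatty acid elongation. This gene had no reads at 0 DPA and a mean of 25.9 at 12 DPA, at least 25.3-fold above the floor. Its mean allows 30 combinations of whole reads, and every one has reads in at least 5 of the 6 libraries. The IDs on both sides carry KCS records too: Gorai.011G249000, matched to the same record, had means of 2.99 and 73.5, and Gorai.011G249200 had 5.80 and 341. At 0 DPA both neighbors had reads in all 6 libraries, 19 and 44 in total, where the member had none. Reads that fit several of these 3 genes would have been set aside as not unique, so the 0 of the member and the levels of all 3 may be too low.

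The tables read for names list mostly genes higher at 12 DPA, and they hold 16 IDs with a KCS record. A count of rises among these is therefore not one over the whole family. Over the 16 IDs, the member was the only one without reads at 0 DPA. The 15 others had 0 DPA means from 2.82 upward, with a median of 19.8, against a median of 341 at 12 DPA. Of these, 14 were higher and 1 lower at 12 DPA, 9 of them at least 8-fold higher, and the median ratio was 16.8. The lower one was Gorai.008G041800, matched to KCS14, with 2.82 and 1.35. KCS13 (Gorai.002G218500) had the highest mean of the 16 IDs at 12 DPA, 3950, from 246 at 0 DPA.

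The cytochrome P450 member was Gorai.012G021500. P450 proteins are heme enzymes that insert oxygen into many plant metabolites, among them phenylpropanoids, fatty acids and hormones, and the record does not say which substrate this one uses. Its mean was 0 at 0 DPA and 22.0 at 12 DPA. The next 2 IDs have the same record and reached far higher means: Gorai.012G021600 had 3.90 and 1128, and Gorai.012G021700 had 2.43 and 331. In single libraries at 0 DPA, Gorai.012G021600 had 0 to 10 reads and Gorai.012G021700 had 0 to 5.

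All 7 IDs with a P450 record in the tables read, which list mostly genes higher at 12 DPA, were low at 0 DPA. P450 genes outside those tables were not seen. The 6 others had 0 DPA means from 0.143 to 3.90 and 12 DPA means from 9.56 to 1128, and each was at least 8-fold higher at 12 DPA. Low values at 0 DPA were thus shared by the listed P450 genes, and the member had the second lowest mean of the 7 at 12 DPA. A second stretch with this record lies on chromosome 8: Gorai.008G026100 had means of 0.160 and 34.3, and Gorai.008G025900 had 0.986 and 9.56.

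Among stress proteins, Gorai.009G360800 was matched to the low molecular weight heat shock protein LMWHSP1. Small heat shock proteins are chaperones that hold unfolding proteins in solution. At 12 DPA it had 5, 3, 2, 9, 10 and 12 reads in libraries 1 to 6, a mean of 7.61 normalized counts. Libraries 1 to 3 were low and libraries 4 to 6 were high, and no library lacked reads. Its ID neighbor Gorai.009G360700, with the same record, had means of 7.41 and 39.5. The 9 other small heat shock IDs were all higher at 12 DPA, 2 of them at least 8-fold, with a median of 20.1 at 0 DPA and 130 at 12 DPA. They too come from tables that list mostly genes higher at 12 DPA. The member was the only one of the 10 at 0 at 0 DPA.

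The VdI2 record, an mRNA of the tetraploid Gossypium barbadense, was matched to 2 members and to no other ID in the tables read. Gorai.005G063300 had 19, 3, 5, 14, 8 and 2 reads in libraries 1 to 6 at 12 DPA, a mean of 8.18. Gorai.005G064500 had 33, 14, 5, 20, 2 and 17 reads, a mean of 14.8. Libraries 1 and 4 were high for both genes, while library 6 was low for the first and high for the second. They lie in a stretch of 23 IDs on chromosome 5 that was little expressed: 17 IDs were at 0 at 0 DPA, 10 of these also at 12 DPA, and Gorai.005G064500 had the highest 12 DPA mean of the stretch.

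A gene of the flavonoid pathway had no reads at 0 DPA but stayed under the minimum. Gorai.012G009400, matched to flavonoid 3-glucosyltransferase, which attaches glucose to flavonoids, was at 0 at 0 DPA and had 29 reads at 12 DPA. They came as 10, 2, 1, 2, 7 and 7 in libraries 1 to 6, a mean of 5.04. The other ID with that record, its neighbor Gorai.012G009500, had means of 3.29 and 67.4.

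Gene lists drawn up by function held 0 or 1 member each. Of 571 IDs with a protein record in the tables read, 5 were members (0.876%) and 9 in all were at 0 at 0 DPA. All 78 members are among the 4596 IDs in those tables, so the 0.208% of all genes is no base for this share. The lists of 39 cell wall genes, 39 cytoskeleton genes, 38 transport genes and 14 hormone genes held 0 members and 0 genes at 0 at 0 DPA. Of 57 regulators, 0 were members and 1 was at 0 at 0 DPA. The 35 lipid genes held 1 member (the KCS gene), the 19 phenylpropanoid and flavonoid genes 1 (the P450-like gene) and the 44 stress and defense genes 1 (the small heat shock gene). The P450-like gene was listed by the words cytochrome P450 alone. Its record names no substrate, so it is not shown to act in those pathways. These tables list mostly genes that were higher at 12 DPA, so the lists are not a sample of all genes. The lists were drawn from the 571 IDs with a protein record. With 5 members among those, lists of this size are too short for a count of 0 to be read.

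Reads of single libraries could be recovered for many members. Each stage mean is a sum of whole reads, each worth a fixed step per library, and the steps differ between libraries. Libraries are numbered here from the largest size factor to the smallest, and none was assigned to a line. Of 75 members searched, 53 had 1 solution in whole reads and 22, with means of 15.2 or more, had several. The 3 highest members were not searched. All 75 had reads in at least 4 libraries at 12 DPA in every solution, 67 in at least 5, and 49 in all 6. Such breadth was not particular to members. With a mean from 6 to 10, 0 of 30 members and 16 of 1705 other genes had reads in fewer than 5 libraries.

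Among the 53 resolved members, 44 had reads in all 6 libraries at 12 DPA and 9 in 5. The members rested on 34 to 110 reads each, with a median of 57. Reads in all 6 libraries were found for 25 of the 30 members with a mean under 10 (83.3%), against 93.4% of 1705 other genes with a mean from 6 to 10. The latter include genes present at both stages. Of 111 other genes in that range that were at least 8-fold higher at 12 DPA than at 0 DPA, 85.6% had reads in all 6. The differences between these sets were not tested.

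The libraries shared a member's counts unevenly. In the 53 resolved members the highest library held 19.5% to 62.5% of a member's normalized counts, with a median of 33.0%. The 22 members with several solutions are not in this range. For Gorai.006G066200 the solutions allow 22.3% to 84.5%. Even sharing would give 16.7%, the lowest value the highest of 6 libraries can have. For members under a mean of 10 the median was 35.6%. It was 32.6% for 111 other genes with a mean from 6 to 10 at least 8-fold higher at 12 DPA, and 28.8% for 1705 other genes of that range. Over the 53 resolved members the coefficient of variation across the 6 libraries ran from 17.3% to 140%, with a median of 67.4%. For members under a mean of 10 its median was 72.0%, for the 111 other genes at least 8-fold higher 62.4%, and for the 1705 other genes 50.9%. In 9 of the 30 members under a mean of 10, 1 library lay far from the other five, judged by its gap to the nearest one as a share of the whole range, against 8.74% of the 1705 other genes and 9.91% of the 111. These differences were not tested.

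The resolved member with the smallest share of its counts in the highest library was Gorai.012G162500, with 26, 18, 18, 19, 14 and 9 reads in libraries 1 to 6. Its normalized counts ran from 11.7 to 20.1 with a median of 17.2, and no library was without reads. By that share Gorai.005G202300 came next, with 20, 15, 14, 10, 5 and 3 reads, high in libraries 1 to 3 and low in libraries 5 and 6. The order differs by the coefficient of variation, where Gorai.003G034700 (35.0%) and Gorai.011G164600 (42.4%) came before Gorai.005G202300 (44.4%). Gorai.009G133400, Gorai.008G103900 and Gorai.002G002600 completed the 5 with the smallest shares, at 24.8%, 25.1% and 25.8% in the highest library. The last 2 each lacked reads in 1 library, library 3 for Gorai.008G103900 and library 6 for Gorai.002G002600.

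At the other end, 5 of the 53 resolved members had over 50% of their normalized counts in 1 library. Gorai.013G092900 had 76, 18, 7, 0, 5 and 4 reads in libraries 1 to 6, 62.5% of its normalized counts in library 1. Gorai.010G096200 had 32, 2, 0, 1, 1 and 11 reads, high in libraries 1 and 6. Gorai.009G240500 had 26, 4, 1, 0, 8 and 2 reads, and Gorai.007G336500 had 37, 7, 7, 1, 4 and 4. All 4 were highest in library 1. Gorai.007G198300 was not: it had 1, 27, 6, 8, 0 and 3 reads, with 58.0% of its normalized counts in library 2. Of the 30 members under a mean of 10, 4 (13.3%) had over 50% in 1 library, against 2.82% of the 1705 other genes and 9.01% of the 111 at least 8-fold higher.

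**Figure D3:**
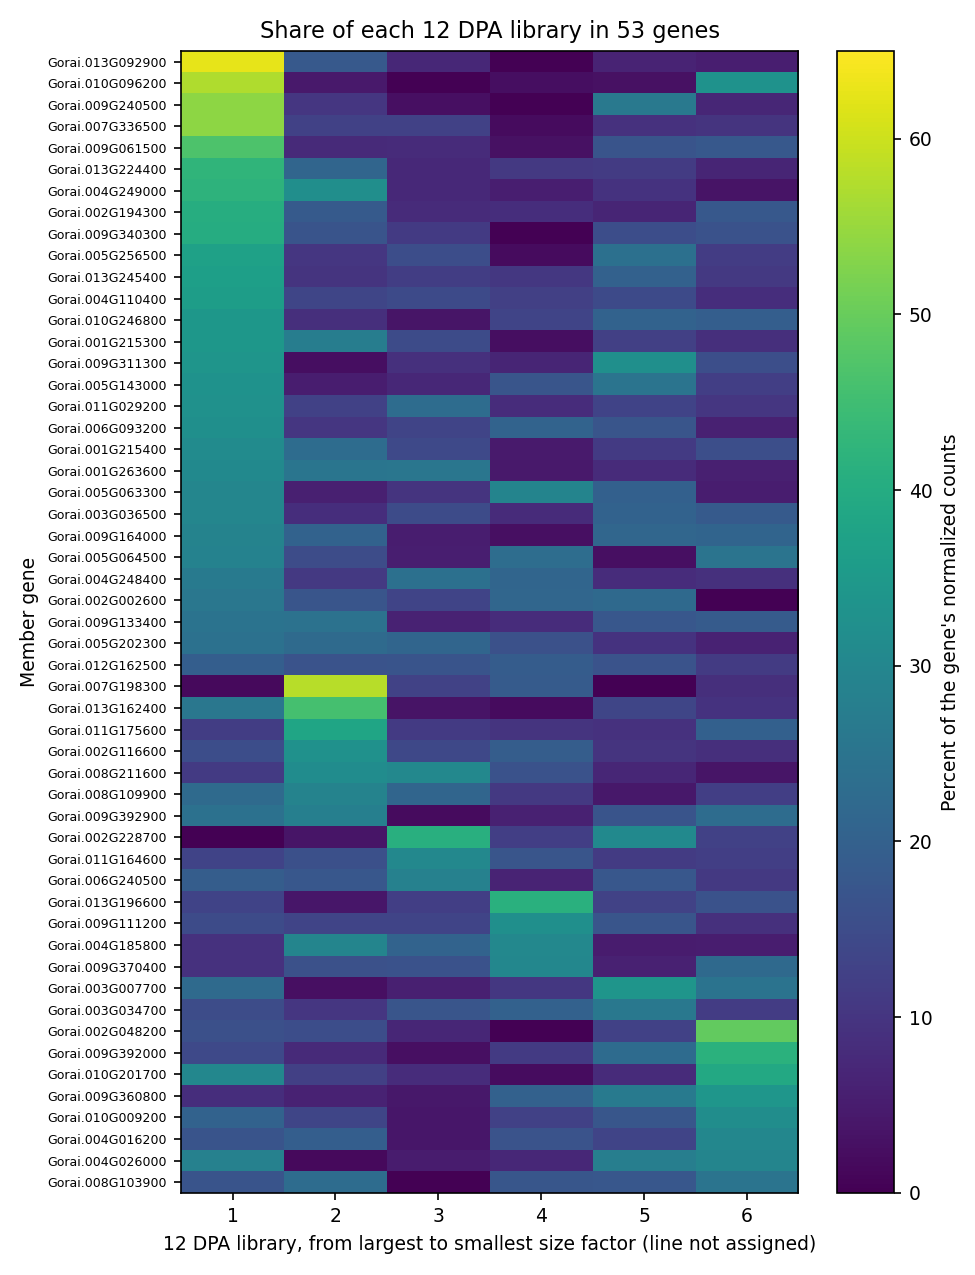
Each line of the heat map is 1 of 53 members and each column a 12 DPA library, ordered by size factor, with color giving the percent of the gene's normalized counts (0 to 65). The block at the top holds the 29 members that were highest in library 1, led by Gorai.013G092900 at 62.5%.

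Library 1 of the 12 DPA stage, which had the largest size factor, was the highest library of 29 of the 53 resolved members (54.7%). Libraries 2 to 6 were the highest for 7, 3, 4, 2 and 8 members. Only Gorai.002G228700 had no reads in library 1. Among members with a mean under 10 library 1 was highest for 14 of 30 (46.7%), among the 1705 other genes in that range for 22.3%, and among the 111 at least 8-fold higher for 37.8%. Library 1 held 27.1% of the summed normalized counts of the resolved members, and 26.3%, 18.9% and 23.4% in those 3 sets. The tilt to library 1 was thus seen in other low genes with a higher 12 DPA mean as well, the difference between the sets was not tested, and which line library 1 is was not given by the table. Without library 1, 7 members fell under a mean of 6, 1 could not be decided, and 2 other genes passed, which left 72.

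**Figure D4:**
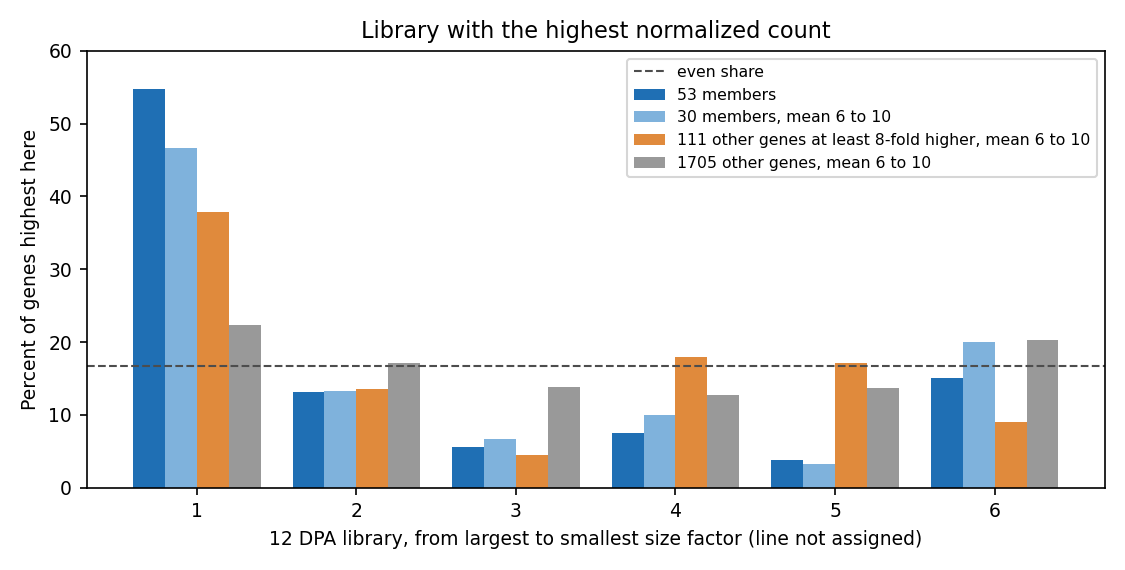
Bars give the percent of genes whose highest normalized count at 12 DPA was in each library, for 53 members, the 30 of them with a mean under 10, 111 other genes of that range at least 8-fold higher at 12 DPA, and 1705 other genes of that range. Library 1 leads in all sets, at 54.7%, 46.7%, 37.8% and 22.3%, with an even share at 16.7% (dashed).

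Members were spread over all 13 chromosomes of the reference, with 3 to 14 on each. Chromosome 9 had 14 (17.9% of members, 12.2% of genes) and chromosome 4 had 12 (15.4% of members, 7.85% of genes). Gene IDs are numbered along each chromosome, so neighbors in ID are neighbors in the annotation. Of the 78 members, 4 (5.13%) stood next to another member, against 0.411% of all genes, and 9 (11.5%) within 5 IDs of one, against 1.96%.

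The densest group was on chromosome 4, where 3 of 6 consecutive IDs were members. Gorai.004G026000, Gorai.004G026300 and Gorai.004G026500 had 12 DPA means of 9.48, 28.9 and 44.3. Between them, Gorai.004G026100 had means of 2.13 and 36.4, Gorai.004G026200 of 0.580 and 214, and Gorai.004G026400 of 0.143 and 89.7. So the non-members of the group had few reads at 0 DPA too, 18, 4 and 1 over the 6 libraries. The sum over all 6 genes was 2.85 at 0 DPA and 423 normalized counts at 12 DPA. Outside the group the pattern stopped: Gorai.004G025900 before it had 85.7 and 126, and Gorai.004G026600 after it had 0 at both stages. Gorai.004G026000 had 21, 1, 3, 4, 13 and 13 reads at 12 DPA, high in libraries 1, 5 and 6 and low in libraries 2 to 4. None of the 3 members has a record, so what the group encodes was not analysed here, and the 6 genes may share reads if they are copies of each other.

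On chromosome 1, Gorai.001G215300 and Gorai.001G215400 were adjacent members matched to the same marker record. The first had 40, 26, 14, 2, 9 and 6 reads at 12 DPA and the second 27, 16, 10, 3, 6 and 8. Both were high in libraries 1 and 2 and lowest in library 4. The 2 IDs before them were also at 0 at 0 DPA, with 12 DPA means of 1.57 and 2.29, and Gorai.001G215500 after them went the other way, with 42.2 and 27.9. As these members may share sequence, they are not taken as independent.

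On chromosome 7, the highest member, Gorai.007G336400, stood next to the uneven member Gorai.007G336500. The ID after this pair, Gorai.007G336600, was abundant at both stages, with means of 1735 and 6942, and the ID before it, Gorai.007G336300, had 158 and 269. No source used here says whether strand was counted. Whether these genes overlap was not tested, as no coordinates were used. On chromosome 9, the members Gorai.009G340100 (44.4) and Gorai.009G340300 (13.1) lay on either side of Gorai.009G340200, which had 1 read at 0 DPA and a 12 DPA mean of 1.97. Gorai.009G340300 had 41, 14, 9, 0, 10 and 10 reads at 12 DPA, high in library 1 and without reads in library 4.

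**Figure D5:**
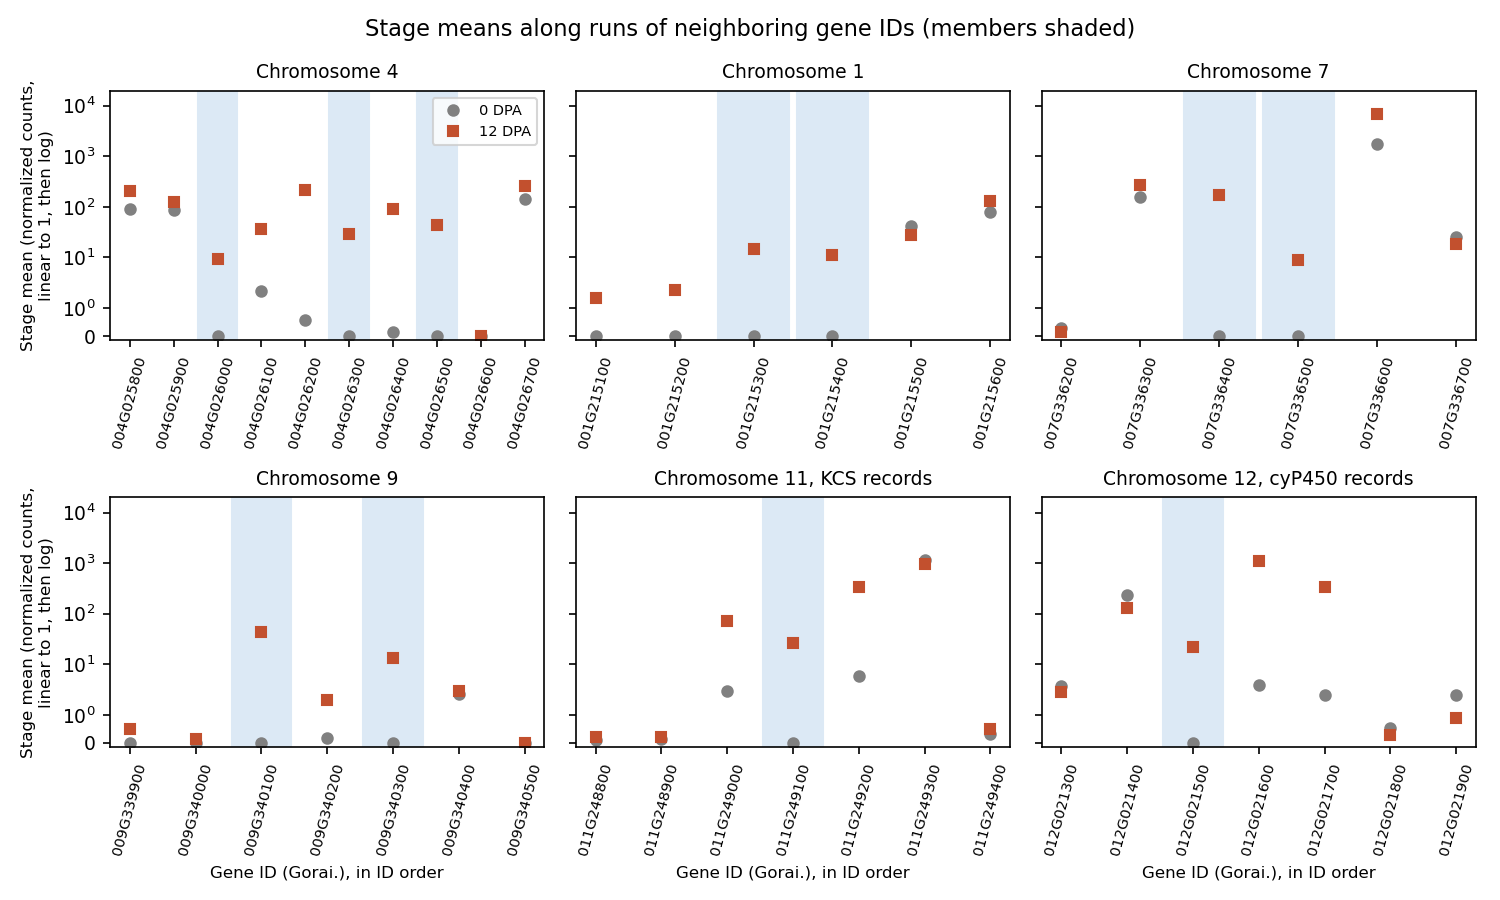
Each panel shows the stage means in normalized counts (linear to 1, then log) along neighboring gene IDs, with gray circles for 0 DPA, orange squares for 12 DPA and members shaded. On chromosome 4 a group of 6 genes goes from a sum of 2.85 to 423, and in the KCS and cyP450 panels the member lies beside IDs that share its record and reach 73.5 to 1128.

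Some members had neighbors that were much higher at 12 DPA. Next to 16 members (20.5%) was a gene at least 8-fold higher at 12 DPA with a mean of at least 6, where 6.66% of all genes had such a neighbor. For 12 of the 78 members that neighbor was itself no member, against 6.28% of all genes. The same holds in part for other genes of this kind. Of the 1220 non-members at least 8-fold higher, 165 (13.5%) stood next to a gene at least 8-fold higher, member or not. Whether genes in such rows are copies that share reads was not tested, and members in them are not counted as separate cases.

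The 17 genes of the opposite set give the same measures with the stages exchanged. Of 11 resolved, 6 had reads in all 6 libraries at 0 DPA, 1 in fewer than 4, and 4 had over 50% of their normalized counts in 1 library. The median share of the highest library was 33.1%. A read weighs most in library 6 of 0 DPA, which had the smallest size factor. Gorai.013G080000 had 10 of its 35 reads there, 52.5% of its normalized counts, and 12 in library 1. Gorai.012G036600 had 47 of its 51 reads in library 3 of 0 DPA, and Gorai.001G220700 had 24 of 32 in library 6, a larger share in 1 library than in any of the 53 resolved members.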

How the data were processed

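RNA of 6 cotton lines was sequenced at 0 and 12 DPA, 1 library per line and stage. Per the labels and methods, the authors trimmed reads (Trimmomatic 0.32), aligned them with TopHat (2.0.13 in the submitters' processing notes, with Bowtie2 2.2.4) to the JGI genome of Gossypium raimondii, a diploid relative, counted them per gene with HTSeq 0.6.0 and normalized them with DESeq 1.18.0. The signal in the authors' deposited table is the mean per stage of counts divided by size factors, although its column names say RPKM. A further 4 columns hold the authors' fold change, its log2, p-value and adjusted p, and were not used.

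The 5 summary entries of HTSeq were left out of every gene sum. Alignments that were not unique made up 87.0% of all entries at 0 DPA and 48.2% at 12 DPA, reads in no gene 6.78% and 26.0%, and ambiguous reads 0.0368% and 0.184%.

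Members were genes with a 0 DPA mean of 0 and a 12 DPA mean of at least 6. The steps that 1 read adds in each library were fitted to 1500 low means per stage, all of which then had 1 solution in whole reads. Members with a mean under 45 were searched for every whole-read solution within the rounding of the table (up to 9 decimals), and values per library are given where 1 solution exists. The recovery was tested on simulated data. No stage test was run, because the rule used that contrast. The members and gene lists were chosen with earlier results of these data known.

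Genes named were the 10 highest, all with a protein record, and the 3 nearest the minimum on each side. The 5 most and 5 least even resolved members, and runs of neighboring IDs with their neighbors, were also named. Any other gene was named after its values were seen. Names came from records that the study's supplementary tables pair with IDs (4596 genes in the part read). No sequence or coordinates of this annotation were used here. Alternatives were other minimums, a 0 DPA mean of up to 1 read, scaling by gene sums and leaving out libraries. Python 3.11.15, numpy 2.4.6, pandas 2.3.3 and matplotlib 3.10.9 were used.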

Additional observations from a re-analysis of the deposited data

Results flagged for a closer look

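In 13 of the 53 resolved members, 1 library at 12 DPA lay far from the other five, judged by its gap to the nearest library as a share of the whole range. With 6 libraries, chance alone marks about 1 group in 20, and small counts are not the values for which that limit was made. The same was found in 9 of the 30 resolved members with a mean under 10 (30.0%), against 8.74% of the 1705 other genes with a mean from 6 to 10 and 9.91% of the 111 of those at least 8-fold higher at 12 DPA. The difference between these sets was not tested. In 11 genes the library was high. Gorai.013G092900 (58.7 normalized counts), Gorai.004G110400 (33.2), Gorai.007G336500 (28.6), Gorai.009G061500 (17.0) and Gorai.002G194300 (14.7) stood out in library 1. Gorai.007G198300 (25.7) and Gorai.011G175600 (20.0002) did so in library 2, and Gorai.011G164600 (16.3) in library 3. In library 4 it was Gorai.013G196600 (19.5) and Gorai.009G111200 (18.5), and in library 6 Gorai.002G048200 (33.8). In 2 genes the library was low: Gorai.012G162500 in library 6 (11.7) and Gorai.008G103900 in library 3 (0 normalized counts). Since each library is another line, a line that differs and a library that differs cannot be told apart.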

How the results depend on the processing

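The number of members followed the limits of the rule: 78 became 125 with a 12 DPA minimum of 3, 40 with a minimum of 12, 213 when a 0 DPA mean of up to 1 read in the shallowest library was allowed, and 48 when the 12 DPA means were divided by the ratio of the gene sums (1.60). The opposite set of 17 genes became 39 with the 0 DPA means multiplied by that ratio. Leaving out 1 library in turn gave 72 to 107 members. The lowest count was without library 1 of 12 DPA and the highest without library 1 of 0 DPA, and the removal of a 0 DPA library can only add genes. Of the 53 resolved members, 44 had reads in all 6 libraries, 35 had at least 2 in each and 21 at least 3 in each. With 80% of the normalized counts in 1 library as the limit in place of 50%, 0 of the 53 passed in place of 5. By raw reads 6 passed. Within 5 IDs there were 9 members near another in place of 4, and 25 had any record in place of a protein record (5). Taking neighbors at least 4-fold higher gave 24 members in place of 16, against 12.6% of all genes. Library 1 was highest for 14 members when those with a mean under 10 alone were counted. The scaling of the opposite set, the leave-out of 0 DPA libraries, the 4-fold neighbors and the mean under 10 were chosen after seeing the data. No paired analysis was possible because the stage means do not tie libraries to lines.

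The number of reads counted in genes limits every 0. In the 0 DPA library with the smallest size factor, a single read is worth 0.342 of the mean. For 25 members there is no value per library.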
